A study of Mus musculus with 9 samples.

Results

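Integrins are the receptors that hold lens cells to the lens capsule, and this report follows 7 integrin subunits and 2 kinases of the integrin adhesion site in lenses that lack the small Maf transcription factors. The 9 genes, chosen by name, were *Itga3*, *Itga6*, *Itga5*, *Itgav*, *Itgb1*, *Itgb5*, *Itgb8*, *Ilk* and *Ptk2*. Each had 1 entry among the 15820 entries with a gene symbol in a table of 22013 entries. RNA was sequenced from mouse lenses at embryonic day E16.5, with 3 libraries for each of 3 genotypes and 8 pooled lenses in each library. Control lenses were *Mafg*+/-:*Mafk*+/-, compound knockout (KO) lenses were *Mafg*-/-:*Mafk*+/-, and double KO lenses were *Mafg*-/-:*Mafk*-/-. All groups therefore carried at least 1 null allele of each gene, no wild type lens was included, and the null alleles were present in every tissue of the embryo.

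An integrin is a pair of 1 alpha and 1 beta subunit in the cell membrane. The alpha subunit largely sets which matrix protein is bound, and the tail of the beta subunit recruits the adaptor and signaling proteins of the adhesion site. In the lens, the capsule is a basement membrane rich in laminin and collagen IV, and both epithelial and fiber cells contact it. The laminin receptors formed by the products of *Itga3* and *Itga6* with that of *Itgb1* are among the best known integrins of the lens. *Ilk* encodes integrin-linked kinase, a pseudokinase that couples beta subunits to actin, and *Ptk2* encodes focal adhesion kinase, the tyrosine kinase activated at such sites. Mafg and Mafk have no activation domain of their own and bind DNA as pairs with CNC or Bach proteins at elements that hold the letters TGACNNNGC, or at the Maf recognition element, which holds the letters TGCTGA.

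To show what the small Maf proteins could read near these genes, the RefSeq windows from 250 bases before to 50 bases after the transcription start (build GRCm38.p6) were searched on both strands for these letters. TGACNNNGC shares its first 4 letters with sites of AP-1 and CREB proteins, and the second motif can lie next to the first. Of 32851 windows, 12.4% held TGACNNNGC and 19.5% held TGCTGA. The table held 9 windows for 7 of the 9 genes. No window was used for *Itga6* and *Ptk2*. TGACNNNGC was found in 1 of the 9 windows, that of *Itgb1*, where it began 21 bases before the start, and TGCTGA was found in 0 of 9. The 250 bases before the start are given for *Itgb1*, the member with the match, and for *Itgb5*. For *Itgb5*, control and double KO values were separate on the authors' scaling. The sequences run from 5′ to 3′ on the plus strand, with the match in capitals. They lie at chr8:128685404-128685653 and chr16:33829415-33829664.
Itgb1: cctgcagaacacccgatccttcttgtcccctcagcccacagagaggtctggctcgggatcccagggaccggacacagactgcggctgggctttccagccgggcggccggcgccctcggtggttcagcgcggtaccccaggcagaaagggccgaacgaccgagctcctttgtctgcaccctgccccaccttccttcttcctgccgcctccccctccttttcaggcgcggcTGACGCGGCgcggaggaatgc
Itgb5: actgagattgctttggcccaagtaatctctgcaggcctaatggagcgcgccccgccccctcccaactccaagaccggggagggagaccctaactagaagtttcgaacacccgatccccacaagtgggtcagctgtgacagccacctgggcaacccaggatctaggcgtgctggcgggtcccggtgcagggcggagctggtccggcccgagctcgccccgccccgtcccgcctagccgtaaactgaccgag
A match of letters is a description of the sequence, and binding was not measured here.

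Values are in CPM as the authors normalized it: each count was divided by its library's total and then scaled by 1 composition factor per library. Depth was not given with these values, so no counting error is stated and the spread between libraries is the measure of precision. For each pair of genotypes, limma was fitted, two-sided, to log2(value + 1) of every gene that reached 1 in 2 or more of the 6 libraries. A gene was called at an adjusted p (Benjamini-Hochberg over all genes tested) no higher than 0.05 and a 1.5-fold or larger change. All 9 members passed the filter on low values in every comparison. The pseudocount of 1 draws the fold changes of genes with low values, here mainly *Itga5*, towards 0.

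The libraries matched their genotypes at the targeted genes. *Mafg* was between 112.9 and 134.5 normalized CPM in control lenses, and at most 24.1 in compound KO and 26.2 in double KO lenses. *Mafk* was between 5.2 and 6.3 in control lenses, between 4.3 and 5.3 in compound KO lenses and at most 0.6 in double KO lenses. Markers of lens fiber cells (13 of 15 listed genes in the table) summed to between 114696 and 137390 in control and between 82856 and 122178 in double KO libraries. Those of lens epithelium (7 of 7) summed to between 728.7 and 766.0 in control and between 637.6 and 667.3 in double KO libraries, without overlap. Compound KO replicate 1 stood apart. Its fiber markers summed to 41640, against at least 107729 in the other 2 compound KO libraries. Its markers of periocular mesenchyme (11 of 11 genes) summed to 2545, against at most 447.5 in any other library. Its markers of neural retina (8 of 8) summed to 928.5, against at most 253.8, those of retinal pigment epithelium (5 of 6) to 698.6, against at most 55.6, and those of surface epithelium (3 of 6) to 267.9, against at most 7.4. Endothelium markers (9 of 9) summed to 148.2 in this library, pericyte markers (7 of 7) to 80.1, macrophage markers (7 of 8) to 32.4, muscle markers (8 of 8) to 357.4 and erythroid markers (7 of 7) to 1425. Erythroid markers summed to between 1170 and 1639 in control and between 2335 and 3867 in double KO lenses, muscle markers to between 3.3 and 5.8 and between 28.4 and 91.8, and pericyte markers to between 32.5 and 58.5 and between 59.9 and 69.9, in each case without overlap. Mesenchyme markers (249.3 to 277.6 and 244.2 to 447.5), endothelium markers (69.4 to 82.5 and 77.3 to 84.9) and macrophage markers (11.1 to 14.5 and 7.2 to 14.3) overlapped between control and double KO lenses. *Pdgfra* alone held 156.3, 172.2 and 163.7 of the mesenchyme sums in control and 139.7, 173.4 and 149.4 in double KO libraries. It was lowest, at 72, in compound KO replicate 1, where *Col1a1* was at 1173.6. *Col1a1* was at 4.6, 4.0 and 9.6 in control and 59.6, 5.9 and 31.0 in double KO libraries, with overlap. The sums therefore do not show that the markers of a list moved together. Listed markers not analysed here included *Ptprc*, *Rpe65*, *Krt14*, *Krt12* and *Trp63*. Compound KO replicates 2 and 3 also differed from control lenses. Their muscle (21.8 to 35.4), macrophage (20.6 to 21.3) and erythroid markers (2057 to 2832) summed above all control libraries. So did their markers of neural retina (121.5 to 253.8, against 31 to 100) and surface epithelium (3.6 to 7.4, against 0.7 to 2.6). The epithelium markers of these libraries (623.5 to 642.4) and their fiber markers (107729 to 108229) summed below all control libraries. Their mesenchyme, endothelium, pericyte and pigment epithelium markers overlapped with control libraries. Because replicate 1 stood apart, the members' fold changes between compound KO and control lenses are also given without it. Counts of members and the values of other genes include it unless stated. The part of other tissues in the results was not tested.

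To rank the 9 genes within the lens, the values of control lenses were divided by the length of each gene's canonical transcript (GENCODE vM39). On this scale *Itgb1* led with 78.3 ± 4.28 normalized CPM per kilobase (SD, n = 3 libraries), followed by *Itgb5* with 68.7 ± 2.19, *Ilk* with 41.9 ± 2.46, *Itga6* with 32.1 ± 4.87 and *Itga3* with 11.5 ± 1.69. In each of these 5 steps, every library of the gene lay above every library of the next one. Below them, *Ptk2* (4.50 ± 4.46), *Itgav* (2.97 ± 1.0), *Itgb8* (2.10 ± 0.184) and *Itga5* (0.753 ± 1.11) overlapped with their neighbors in the order. The most abundant alpha and beta subunits per kilobase in control lenses were thus *Itga6* and *Itgb1* among these members. The entries are at transcript level, and the transcript that each of them counts was not given in the sources used here, so the levels per kilobase are approximate. By mean normalized CPM, not corrected for length, *Itgb1* was above 99.0% of 14562 genes and *Itga5* above 28.4%.

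**Figure D1:**
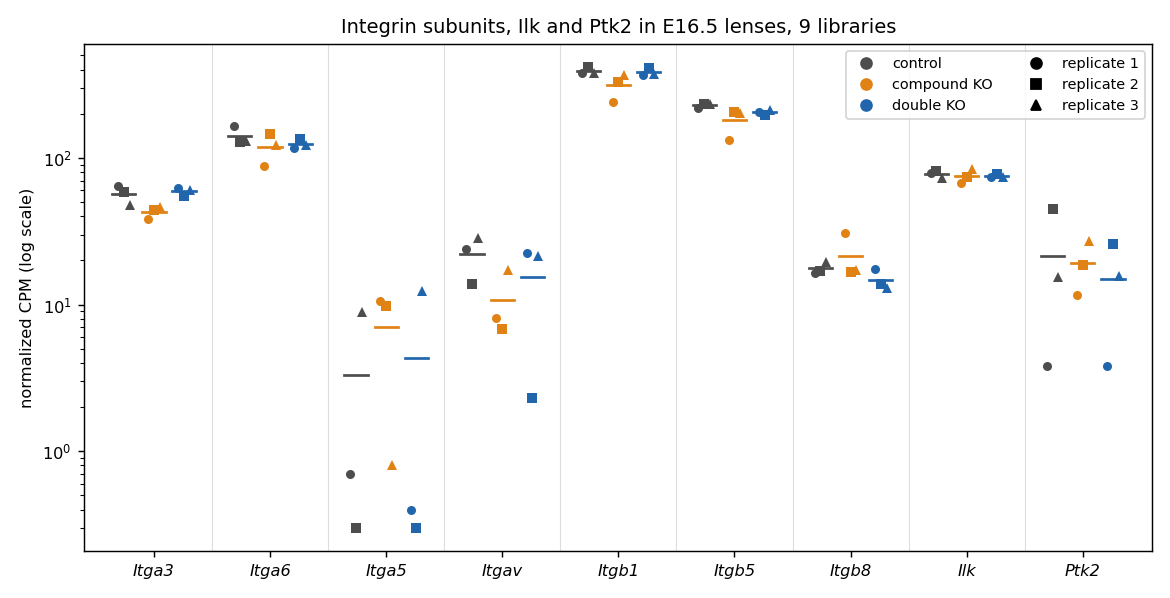
Normalized CPM (log axis) of the 9 genes in each of the 9 libraries, colored by genotype, with the symbol giving the replicate and the bar giving the group mean. *Itgb1*, *Itgb5* and *Ilk* lie close together in control and double KO lenses, compound KO replicate 1 is the lowest library for *Itgb1* (241.3) and *Itgb5* (132.2), and *Itga5*, *Itgav* and *Ptk2* are spread widely within genotypes.

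In double KO lenses, the integrin genes with high values stayed close to their control levels. Against control lenses, limma called 0 of the 9 members (0.361% of the 14122 genes tested were called), and 0 passed an unadjusted p of at most 0.05 with a 1.5-fold change (2.83% of all genes). At the same unadjusted p and any fold, 1 member passed (9.97% of all genes), and for 1 member the libraries of both groups did not overlap (15.8% of all genes). Both counts refer to *Itgb5*, and neither held for it with libraries scaled to equal totals. The median log2 fold change of the members was −0.16, that of all genes tested was 0.01, and 2 members were higher and 7 lower. For 6 of the 9 members (*Itga3*, *Itga6*, *Itgb1*, *Itgb5*, *Itgb8* and *Ilk*), the 95% confidence interval of the log2 fold change lay within ±0.585, which is a 1.5-fold change. For the other 3 (*Itga5*, *Itgav* and *Ptk2*), the interval reached past it on both sides. The count of 6 depended on the setting, since the interval of *Itgb8* began at −0.583. It began at −0.591 with equal totals, at −0.694 with the replicate number as a block and at −0.80 in 1 fit of all 9 libraries. In that last fit the interval of *Itga6* began at −0.598. Lower RNA per cell and fewer cells of a type cannot be told apart in whole lenses.

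*Itga3* and *Itga6* encode the alpha subunits that bind laminin. *Itga3* (chromosome 11 of GRCm39, 94935296 to 94967682) was at 64.2, 58.9 and 47.8 normalized CPM in control lenses, 38.4, 44.0 and 46.4 in compound KO lenses and 62.6, 55.4 and 60.2 in double KO lenses. Control and double KO libraries overlapped, and every compound KO library lay below all libraries of both other groups. The log2 fold change was 0.07 (standard error, SE, 0.12, 95% interval −0.23 to 0.36) in double KO against control lenses, −0.39 (0.14, −0.74 to −0.05) in compound KO against control lenses and 0.46 (0.10, 0.21 to 0.71) in double KO against compound KO lenses. None of these passed after adjustment (adjusted p = 0.905, 0.481 and 0.665, limma). Without compound KO replicate 1, both compound KO contrasts kept their direction, at −0.32 against control lenses and 0.39 in double KO against compound KO lenses. With equal library totals they were −0.14 and 0.28. On that scale compound KO replicate 1, at 52.7, and replicate 3, at 45.4, no longer lay below all controls.

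*Itga6* (chromosome 2, 71575960 to 71689757) was at 166.4, 128.1 and 130.4 in control lenses, 88.7, 145.1 and 123.3 in compound KO lenses and 117.4, 135.4 and 122.1 in double KO lenses. The groups overlapped in all 3 comparisons. Double KO against control lenses gave a log2 fold change of −0.17 (SE 0.12, 95% interval −0.47 to 0.12, adjusted p = 0.716, limma), and it shrank to −0.05 without control replicate 1, the library with the highest value. In compound KO against control lenses it was −0.27 (SE 0.21, adjusted p = 0.550, limma), and −0.07 without compound KO replicate 1. The ratio of *Itga6* to *Itga3* within a library, which does not depend on the scaling of libraries, was 2.59, 2.17 and 2.73 in control lenses and 1.88, 2.44 and 2.03 in double KO lenses. The groups overlapped (log2 difference −0.24, exact permutation test, two-sided, p = 0.2, 0.6 after adjustment over the 12 ratio tests made, where 3 against 3 libraries cannot give a p below 0.1).

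*Itga5* and *Itgav* encode the alpha subunits of receptors that bind the RGD sequence of fibronectin, vitronectin and latent TGF-beta. Both varied within genotypes. *Itga5* (chromosome 15, 103252713 to 103275270) was at 0.7, 0.3 and 8.9 in control lenses, 10.6, 9.8 and 0.8 in compound KO lenses and 0.4, 0.3 and 12.3 in double KO lenses. In each genotype it was thus below 1 in some libraries and between 8.9 and 12.3 in the rest. Its log2 fold change in double KO against control lenses was 0.05 with a SE of 1.21 (95% interval −2.95 to 3.04, adjusted p = 0.995, limma), and its direction turned with a pseudocount of 0.1. In compound KO against control lenses it was 1.12 (SE 1.07, adjusted p = 0.613, limma), and 0.66 without compound KO replicate 1.

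*Itgav* (chromosome 2, 83554403 to 83637260) was at 23.8, 13.8 and 28.3 in control lenses, 8.1, 6.8 and 17.3 in compound KO lenses and 22.6, 2.3 and 21.5 in double KO lenses. A single library, double KO replicate 2, lay far below the other double KO libraries, which were within the range of the controls. Double KO against control lenses gave a log2 fold change of −0.87 (SE 0.83, adjusted p = 0.789, limma), which turned to 0.06 without that library. In compound KO against control lenses it was −1.02 (SE 0.41, 95% interval −2.04 to 0.00492, adjusted p = 0.481, limma), the largest fall among the members in that comparison. The groups overlapped, since compound KO replicate 3 lay above control replicate 2. Without compound KO replicate 1 the value was −0.89.

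*Itgb1* encodes the beta subunit shared by the laminin, collagen and fibronectin receptors. It lies on chromosome 8 from 129411876 to 129460618, and its upstream sequence is the one printed above that holds TGACNNNGC. Its values were 378.3, 416.9 and 381.4 in control lenses, 241.3, 330.0 and 369.1 in compound KO lenses and 369.8, 407.6 and 373.6 in double KO lenses. Control and double KO libraries overlapped, and the log2 fold change between them was −0.03 (SE 0.06, 95% interval −0.19 to 0.12, adjusted p = 0.915, limma). With libraries scaled to equal totals it was 0.04, so that its sign depended on the scaling. All 3 compound KO libraries lay below all others, although compound KO replicate 3 (369.1) was close to double KO replicate 1 (369.8). The log2 fold change against control lenses was −0.34 (SE 0.17, adjusted p = 0.481, limma), −0.17 without compound KO replicate 1 and −0.09 with equal totals.

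The ratio of *Itga6* to *Itgb1* was 0.440, 0.307 and 0.342 in control lenses, 0.368, 0.440 and 0.334 in compound KO lenses and 0.317, 0.332 and 0.327 in double KO lenses. Double KO values lay within the range of the controls and below all compound KO libraries (log2 difference from compound KO −0.22, exact permutation p = 0.1, the smallest possible, 0.6 after adjustment over the 12 tests).

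*Itgb5* and *Itgb8* encode beta subunits that pair with the *Itgav* product. *Itgb5* (chromosome 16, 33649988 to 33771137) was at 220.4, 232.1 and 233.8 in control lenses, 132.2, 206.5 and 202.9 in compound KO lenses and 206.2, 196.6 and 211.0 in double KO lenses. No double KO library reached the lowest control library, and no compound KO library did. For double KO against control lenses the log2 fold change came to −0.16 (SE 0.05, 95% interval −0.28 to −0.04, adjusted p = 0.362, limma). It ranged from −0.19 to −0.13 with single libraries left out and was −0.09 (95% interval −0.23 to 0.05) with equal totals. On that scale double KO replicate 1 lay above control replicate 2, so the groups overlapped. The fold change did not pass after adjustment. Lens epithelium markers, given above, were also lower in every double KO than in every control library, and their part in this difference was not tested. In compound KO against control lenses it was −0.37 (SE 0.19, adjusted p = 0.481, limma) with all libraries, −0.16 (SE 0.05, adjusted p = 0.356, limma) without replicate 1 and −0.11 with equal totals. Between double KO and compound KO lenses it was 0.21 with all libraries, and the sign turned (−0.00126) without that replicate.

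*Itgb8* (chromosome 12, 119121748 to 119202584) was at 17.0 and 19.4 in control replicates 2 and 3 and just below 17.0 in replicate 1, at 30.9, 16.6 and 17.1 in compound KO lenses and at 17.4, 13.8 and 12.9 in double KO lenses. The highest value was that of compound KO replicate 1, the library with high markers of several other tissues, whose part in this value was not tested. The other 2 compound KO libraries lay among the controls. The log2 fold change in double KO against control lenses was −0.25 (SE 0.13, 95% interval −0.58 to 0.07, adjusted p = 0.615, limma), and the groups overlapped. In compound KO against control lenses it was 0.22 with all libraries and −0.06 without replicate 1. The ratio of *Itgb5* to *Itgb8* was between 12.1 and 13.7 in control lenses and between 11.9 and 16.4 in double KO lenses. It was 4.28, 12.4 and 11.9 in compound KO lenses, the first value being that of replicate 1.

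*Ilk* had the smallest within-group SD of log2(value + 1) of the 9 genes, pooled over the genotypes (0.104). In control lenses alone, the SD was 5.87% of the mean for *Ilk*, 3.19% for *Itgb5* and 5.47% for *Itgb1*. *Ilk* lies on chromosome 7 from 105385782 to 105392182. It was at 79.5, 81.4 and 72.7 in control lenses, 67.5, 74.5 and 83.7 in compound KO lenses and 74.0, 78.0 and 74.7 in double KO lenses. The groups overlapped in all comparisons. The log2 fold change in double KO against control lenses was −0.04 (SE 0.06, 95% interval −0.19 to 0.11, adjusted p = 0.871, limma), with a sign that turned (0.03) under equal totals. In compound KO against control lenses it was −0.05 (SE 0.10, adjusted p = 0.810, limma), and in double KO against compound KO lenses it was 0.01 (SE 0.10, adjusted p = 0.967, limma). Both signs turned without compound KO replicate 1, to 0.0217 and −0.0631. *Ilk* was the single member with an interval within a 1.5-fold change in all 3 comparisons.

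*Ptk2* (chromosome 15, 73076832 to 73295129) differed from *Ilk* in its spread. It was at 3.8, 44.7 and 15.4 in control lenses, 11.6, 18.6 and 27.1 in compound KO lenses and 3.8, 25.7 and 15.6 in double KO lenses. Both control and double KO lenses thus held a library at 3.8 beside libraries several times higher. Double KO against control lenses gave a log2 fold change of −0.25 (SE 1.01, 95% interval −2.75 to 2.24, adjusted p = 0.964, limma). It turned to 0.46 without double KO replicate 1 and to 0.54 without control replicate 2. Compound KO against control lenses gave 0.32 (SE 0.84, adjusted p = 0.866, limma), and 0.62 without compound KO replicate 1. The ratio of *Ptk2* to *Ilk* ranged from 0.0478 to 0.549 in control lenses, from 0.172 to 0.324 in compound KO lenses and from 0.0514 to 0.329 in double KO lenses, with overlap in all comparisons (exact permutation p between 0.7 and 0.9).

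**Figure D2:**
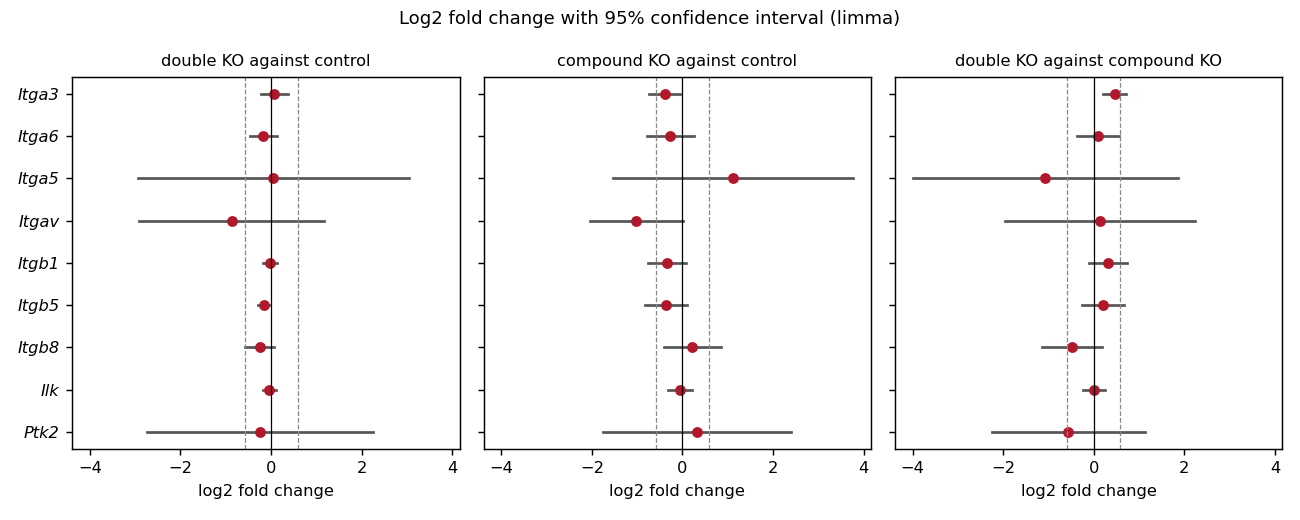
Log2 fold change (point) with its 95% confidence interval (line) for each gene in the 3 comparisons, with dashed lines at a 1.5-fold change in either direction. In double KO against control lenses, 6 of the 9 intervals lie within the dashed lines, that of *Itgb8* narrowly (from −0.583), and those of *Itga5*, *Itgav* and *Ptk2* extend beyond them.

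Against control lenses, the standard errors of compound KO were larger than those of double KO lenses for *Itga3*, *Itga6*, *Itgb1*, *Itgb5*, *Itgb8* and *Ilk*. They were smaller for *Itga5* (1.07 against 1.21), *Itgav* (0.41 against 0.83) and *Ptk2* (0.84 against 1.01). Between compound KO and control lenses, 0 of 9 members were called by limma (0% of 14348 genes) and 0 passed an unadjusted p of at most 0.05 with a 1.5-fold change (5.34%). With any fold, 1 member passed (*Itga3*, 9.3% of all genes), and the libraries of 3 members (*Itga3*, *Itgb1* and *Itgb5*) did not overlap (23.9%). With equal library totals, the compound KO and control libraries of these 3 members overlapped. The median log2 fold change of the members was −0.27, beside 0.02 for all genes tested. Scaling to equal totals moved the median of all genes to 0.24 and that of the members to −0.01. Without replicate 1 the median of the members was −0.07. When double KO was set against compound KO, 0 of 9 members were called by limma (0.0139% of 14402 genes), 0 passed an unadjusted p with a 1.5-fold change (3.06%), 1 passed with any fold (*Itga3*, 4.87%), and 2 (*Itga3* and *Itgb1*) did not overlap (15.6%). The median log2 fold change of the members was 0.10, and −0.06 without compound KO replicate 1. Both comparisons share the compound KO libraries, so they are not independent.

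The spread of *Itga5*, *Itgav* and *Ptk2* stood out against genes of a similar level, that is, genes whose mean log2 value differed by at most 0.5. The within-group SD of log2(value + 1), pooled over the 3 genotypes, was 1.68 for *Itga5*, 1.05 for *Itgav* and 1.24 for *Ptk2*. The median of genes of similar level was 0.313, 0.220 and 0.214, respectively, and 98.0%, 94.3% and 96.9% of those genes had a smaller SD. For the other 6 members the SD was between 0.104 (*Ilk*) and 0.313 (*Itgb8*). *Itga5* was low in control replicates 1 and 2, compound KO replicate 3 and double KO replicates 1 and 2, *Ptk2* was lowest in control and double KO replicate 1, and *Itgav* was lowest in double KO replicate 2. Entries without a symbol held between 25.0% and 35.5% of the total of a library. Whether reads of these genes were counted in such entries was not tested.

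**Figure D3:**
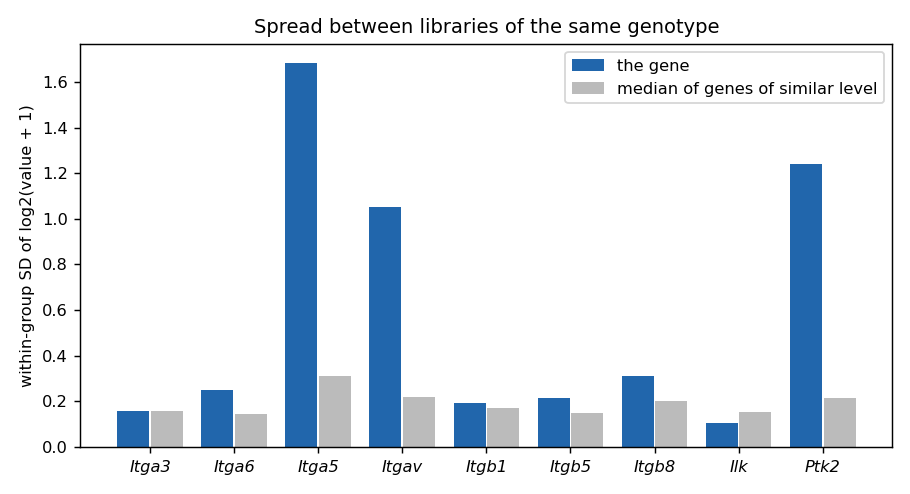
Within-group SD of log2(value + 1), pooled over the 3 genotypes, for each gene (blue bars) beside the median SD of genes of similar level (gray bars). *Itga5*, *Itgav* and *Ptk2* have an SD of 1.05 or more, and the other members have an SD of at most 0.313.

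Of 27 integrin subunits listed, 18 were in the table, and 12 of them averaged 1 or more in control lenses. Outside the 9 members, 7 further subunits could be tested between double KO and control lenses, and 0 of them were called by limma, while 1, *Itgb3*, passed an unadjusted p with a 1.5-fold change (2.83% of all genes passed it and 0.361% were called). *Itgb3* met the filter on low values only through the double KO libraries, where it was high, so its passing is a description only. Their median log2 fold change was 0.19, and that of all genes was 0.01. *Itga2*, a collagen-binding alpha subunit, was at 19.6 ± 4.23 (SD, n = 3) in control, 14.6 ± 5.69 in compound KO and 19.4 ± 0.971 in double KO lenses. *Itga9*, whose product binds tenascin-C, was at 18.9 ± 8.92 in control, 14.4 ± 0.208 in compound KO and 19.6 ± 2.17 in double KO lenses, without overlap between compound KO and double KO libraries (log2 fold change 0.42, adjusted p = 0.665, limma).

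*Itga2b* and *Itgb3*, which together form the fibrinogen receptor of platelets, were near the lower limit of the values. They separated control lenses from lenses that lack *Mafg*, while compound KO and double KO libraries overlapped. *Itga2b* was at 0.7, 1.0 and 0.7 in control lenses, 1.5, 1.7 and 1.7 in compound KO lenses and 1.3, 1.6 and 1.3 in double KO lenses. *Itgb3* was at 0.7, 0.7 and 0.4 in control lenses, 2.0, 1.1 and 2.1 in compound KO lenses and 1.9, 1.1 and 1.6 in double KO lenses. For both genes every library that lacked *Mafg* lay above every control library. For double KO against control lenses the log2 fold change came to 0.42 (SE 0.12, adjusted p = 0.351, limma) for *Itga2b* and 0.66 (SE 0.16, adjusted p = 0.289, limma) for *Itgb3*. Against control lenses, compound KO lenses gave 0.55 and 0.76 (adjusted p = 0.481 for both, limma). *Itgb3* was below 1 in every control library, and *Itga2b* reached 1.0 in a single one. Both thus met the filter on low values only through the libraries where they were high, so these fold changes and p-values are descriptions only. Erythroid markers, given above, were also higher in every double KO than in every control library. They were at 2057 to 2832 in compound KO replicates 2 and 3, but at 1425, within the control range, in replicate 1. Their part in the values of *Itga2b* and *Itgb3* was not tested.

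Of 28 integrin ligands listed, 24 were tested between double KO and control lenses, 0 were called by limma, and 1, *Thbs1*, passed an unadjusted p with a 1.5-fold change. *Thbs1*, which encodes thrombospondin-1 and was named after its values were seen, was at 22.8, 31.8 and 15.0 in control lenses and 31.8, 46.9 and 69.0 in double KO lenses, which touched at 31.8 (log2 fold change 1.05, SE 0.37, adjusted p = 0.436, limma). The median log2 fold change of the ligands was 0.00213, beside 0.01 for all genes, 2.83% of which passed that unadjusted test. *Lama3*, a laminin alpha chain, averaged 6.90 ± 0.954 (SD, n = 3) in control lenses and 4.53 ± 0.231 in double KO lenses, without overlap (log2 fold change −0.51, SE 0.13, adjusted p = 0.279, limma). *Tgfb3*, a growth factor stored in latent form, was at 6.17 ± 0.252 in control lenses and 8.70 ± 0.2 in double KO lenses, without overlap (log2 fold change 0.44, SE 0.08, adjusted p = 0.194, limma). In compound KO lenses, *Lamb2*, a laminin beta chain, was at 46.1 ± 7.14, against 27.4 ± 6.52 in control and 33.8 ± 5.45 in double KO lenses, and *Col1a2*, a fibrillar collagen chain, was at 33.7, 49.1 and 13.0, against at most 10.7 in control lenses. These were the 2 of 24 ligands tested that had an unadjusted p of at most 0.05 with a 1.5-fold change between compound KO and control lenses. Of all genes, 5.34% passed that test (adjusted p = 0.481 for both ligands, limma). *Npnt*, which encodes nephronectin, was at 79.6 ± 17.9 in compound KO and 109.4 ± 15.5 in double KO lenses, without overlap (log2 fold change 0.47, adjusted p = 0.665, limma).

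Of 42 core components of adhesion sites listed, 36 were tested between double KO and control lenses and 0 were called by limma, with a median log2 fold change of −0.03 (0.01 for all genes), and 1, *Crk*, passed an unadjusted p with a 1.5-fold change, towards lower values (2.83% of all genes passed in either direction). *Crk*, which encodes an adaptor protein and was named after its values were seen, was at 147.4, 159.7 and 153.5 in control lenses and 141.3, 40.4 and 55.2 in double KO lenses (log2 fold change −1.16, SE 0.45, adjusted p = 0.482, limma). *Actn1*, which encodes an actinin that crosslinks actin, was at 72.9 ± 4.12 (SD, n = 3) in control, 55.0 ± 8.22 in compound KO and 58.3 ± 2.06 in double KO lenses. Every library that lacked *Mafg* lay below every control library (log2 fold change in double KO against control lenses −0.32, SE 0.06, adjusted p = 0.183, limma). *Ppm1f*, a phosphatase that acts on integrin activation, was at 136.8 ± 5.93 in control and 115.6 ± 1.32 in double KO lenses (log2 fold change −0.24, SE 0.05, adjusted p = 0.197, limma). *Actn4*, the second actinin of adhesion sites, was at 106.0 ± 6.55 in compound KO and 84.5 ± 8.43 in double KO lenses (log2 fold change −0.33, adjusted p = 0.665, limma). *Fermt3*, the kindlin of blood cells, was at most 1.8 in any library, and its double KO libraries lay below the compound KO libraries (log2 fold change −0.80, adjusted p = 0.665, limma). In this comparison *Fermt3* met the filter on low values only through the compound KO libraries, where it was high. When double KO was set against compound KO, 36 genes of this list were tested. Of these, 2, *Fermt3* and *Parva*, passed an unadjusted p with a 1.5-fold change (3.06% of all genes).

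Of 8 membrane proteins known to associate with integrins, 8 were tested and 0 were called by limma in any comparison. *Cd47* had the largest difference, between compound KO and other lenses. It was at 2.9, 3.9 and 4.5 in control lenses, 11.1, 18.1 and 20.2 in compound KO lenses and 3.2, 7.3 and 5.0 in double KO lenses. Every compound KO library lay above all others, and replicate 1, the library with high markers of other tissues, was the lowest of the 3. On the log2 scale the difference was 1.85 (SE 0.26, adjusted p = 0.286, limma) against control lenses and −1.52 (SE 0.33, adjusted p = 0.665, limma) in double KO against compound KO lenses. *Cd151*, a tetraspanin that binds laminin-binding integrins, was at 54.1 ± 0.874 (SD, n = 3) in control, 45.7 ± 4.90 in compound KO and 50.3 ± 1.45 in double KO lenses. On the authors' scaling only, the control libraries lay above all others (log2 fold change in double KO against control lenses −0.10, adjusted p = 0.557, limma). *Bsg*, which encodes basigin, was at 258.4 ± 24.9 in control and 288.7 ± 13.9 in double KO lenses, with overlap (log2 fold change 0.16, adjusted p = 0.592, limma).

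**Figure D4:**
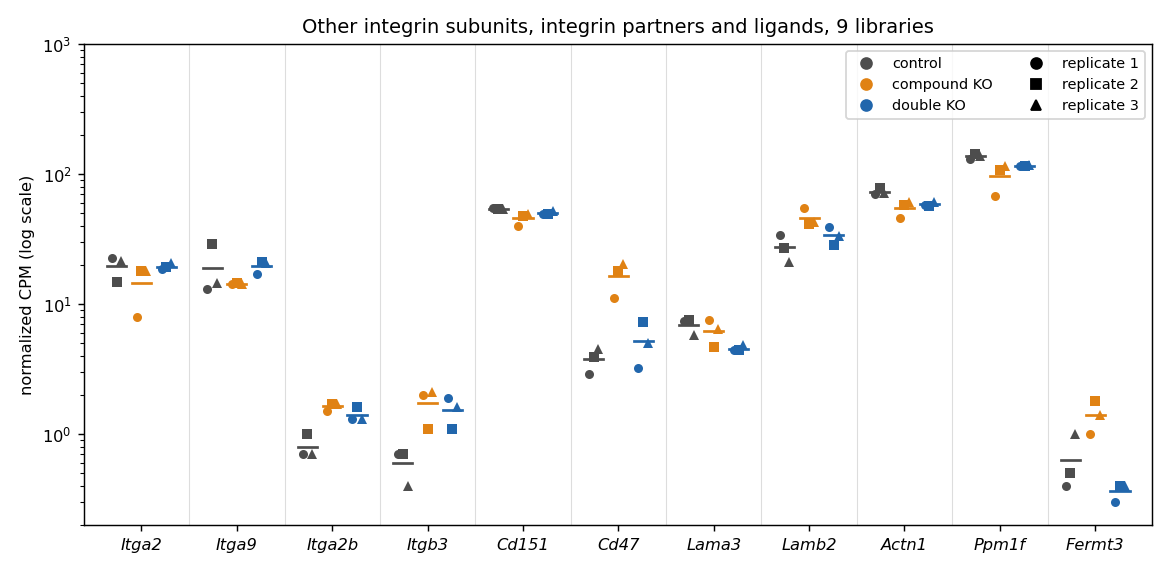
Normalized CPM (log axis) of other integrin subunits, integrin partners and ligands in each library, colored by genotype, with the symbol giving the replicate and the bar giving the group mean. *Itga2b* and *Itgb3* are above the control range in all libraries that lack *Mafg*, *Actn1* is below it, and *Cd47* is high in the 3 compound KO libraries.

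Across the 9 libraries, the genes whose log2 values were most like those of *Itgb1* were *Ace* (Pearson's r = 0.988), *Riok3* (0.988) and *Pdgfra* (0.988), among 8146 genes with a mean of at least 10. *Ace* was at 20 in compound KO replicate 1 and between 48.4 and 71.5 in the other libraries, and this low library is shared with *Itgb1*. Among the members, *Itgb5* was the most like *Itgb1* (r = 0.899) and *Itgb8* ran opposite to it (r = −0.825). These values describe the 9 libraries, which share 1 library far from the rest.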

How the data were processed

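RNA-seq libraries of E16.5 lenses were grouped by genotype as labelled, 3 in each of 3 groups. Per the labels and methods, reads were trimmed with Trimmomatic, aligned to mm39 with HISAT2 and assembled with StringTie, and the authors read transcript-level counts into edgeR, where rows of low CPM were dropped. Cufflinks is also named in the submitters' processing notes. Versions are not given in the sources used here. The deposited values are a signal normalized by the authors, CPM multiplied by a composition factor for each library and rounded to 1 decimal, since the totals differed between libraries (728036 to 1131184) with a geometric mean of 1000012. These totals are not depths.

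Tests used limma 3.58.1 in R 4.3.3 with an intensity trend on log2(value + 1), separately for each pair of groups over all entries with a symbol, and Benjamini-Hochberg adjustment. A count model had been planned in case the table held counts. The test was checked on simulated data for double KO against control lenses only. It called 96 of 112 genes changed by 2 log2 units, 49 of 88 changed by 1, and 5 unchanged genes. Ratios of members were compared by exact permutation with scipy 1.17.1. Python 3.11.15, numpy 2.4.6, pandas 2.3.3 and matplotlib 3.10.9 were used. Positions are from GENCODE vM39 (GRCm39, the same assembly as mm39) and upstream sequences from RefSeq (GRCm38.p6).

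The members, lists and tests were chosen with earlier results of these data known. Genes named outside the members are, for each list, those called in any comparison and the 2 with the smallest p in each comparison, with *Mafg* and *Mafk* as the check of genotypes and the 3 genes most like *Itgb1*. *Thbs1*, *Crk*, *Parva*, *Col1a1*, *Pf4*, *Ppbp* and *Gp1bb* fall outside this rule and were chosen after their values were seen. The alternatives were 2 other scalings, 2 other filters, a pseudocount of 0.1, a block for the replicate number, 1 model over the 9 libraries together, summed entries of a symbol and each replicate left out. Tests did not include entries lacking a symbol. For genes outside the members and for marker sums, overlap of libraries is given on the authors' scaling only.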

Additional observations from a re-analysis of the deposited data

How the results depend on the processing

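Under all alternatives, 0 members were called in any comparison, and the smallest adjusted p over members, comparisons and settings was 0.327 (limma). Of 373 fits of single members under alternatives, 25 had the sign opposite to the reported one. The cause was not tested. With equal library totals, the log2 fold change turned to 0.0385 for *Itgb1* and 0.0279 for *Ilk* in double KO against control lenses, to 0.20 for *Ilk* in compound KO against control lenses, and to −0.0896 for *Itga6*, −0.0232 for *Itgav* and −0.17 for *Ilk* in double KO against compound KO lenses, and the median of the members moved to −0.0122 and −0.0896 in the last 2 comparisons. With a pseudocount of 0.1, *Itga5* turned to −0.0719 in double KO against control lenses. Leaving out single libraries gave, in double KO against control lenses, ranges of −0.0510 to 0.16 for *Itga3*, −0.50 to 0.63 for *Itga5*, −1.36 to 0.0621 for *Itgav*, −0.0759 to 0.0130 for *Itgb1* and −1.09 to 0.54 for *Ptk2*, in compound KO against control lenses −0.0589 to 0.37 for *Itgb8*, −0.13 to 0.0217 for *Ilk* and −0.52 to 1.10 for *Ptk2*, and in double KO against compound KO lenses −0.0999 to 0.25 for *Itga6*, −0.34 to 1.08 for *Itgav*, −0.00126 to 0.32 for *Itgb5*, −0.0631 to 0.0901 for *Ilk* and −1.10 to 0.14 for *Ptk2*. The median of the members ranged from −0.19 to −0.0267 in double KO against control lenses (lowest in size without double KO replicate 1), from −0.39 to −0.0715 in compound KO against control lenses (−0.0715 without compound KO replicate 1) and from −0.0631 to 0.14 in double KO against compound KO lenses (−0.0631 without compound KO replicate 1). The number of members at an unadjusted p with a 1.5-fold change ranged from 0 to 1 in both compound KO comparisons, and it was 1 (*Itgav*) in compound KO against control lenses with upper quartile scaling, when each library had to reach 1, with the replicate block, without control replicate 2 (log2 fold change −1.30) and without compound KO replicate 3 (−1.39). In double KO against compound KO lenses it was 1 (*Itgav*, 1.08) without double KO replicate 2. The log2 ratio differences ranged from −0.0102 to 0.25 for *Itga6* to *Itga3* in compound KO against control lenses, from −0.0109 to 0.21 for *Itgb5* to *Itgb8* in double KO against control lenses, from −0.25 to 0.00611 for *Itga6* to *Itgb1* in double KO against control lenses and −0.0353 to 0.22 in compound KO against control lenses, and for *Ptk2* to *Ilk* from −1.06 to 0.54, −0.48 to 1.12 and −1.08 to 0.12 in double KO against control, compound KO against control and double KO against compound KO lenses.

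Same-numbered libraries did not all deviate together (correlations of −0.106 to 0.216 over 14578 genes), and nothing else pairs them. With the replicate number as a block, the standard error of *Itga5* in double KO against control lenses was 0.18 and that of *Ptk2* 0.21, with adjusted p of 0.949 and 0.731 (limma), and it changed no call of a member. Over all genes, it lowered the number called in this comparison from 51 to 10. Depth is unknown for these values, so the limit it sets for low genes such as *Itga5* cannot be stated.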

Other observations

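*Itga2b* and *Itgb3* were not the only platelet genes with low values in control lenses. In a list added after the data were seen, *Ppbp*, a platelet chemokine, was listed at 0 in the 3 control libraries, at 0.4, 0.3 and 0.5 in compound KO lenses and at 0.5, 0.9 and 1.4 in double KO lenses. *Pf4*, platelet factor 4, was at 0, 0.3 and 0.5 in control lenses, 1.7, 1.3 and 0.9 in compound KO lenses and 0.9, 1.0 and 0.9 in double KO lenses. *Gp1bb*, a subunit of the von Willebrand factor receptor, was at 0.2, 0 and 0.1 in control lenses, 2.6, 1.5 and 0.7 in compound KO lenses and 0.3, 2.4 and 0.1 in double KO lenses. Its compound KO libraries lay above its control libraries, and its double KO libraries overlapped with both groups. *Fermt3*, the other gene of this list, was at 0.4, 0.5 and 1.0 in control lenses, 1.0, 1.8 and 1.4 in compound KO lenses and 0.3, 0.4 and 0.4 in double KO lenses, so that it was not higher in double KO lenses. Apart from *Fermt3*, these values were not tested, and all are near the lower limit of the table.

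*Parva*, a binding partner of integrin-linked kinase, was chosen after its values were seen. It was at 49.8, 111.5 and 49.1 normalized CPM in control lenses, 99.0, 106.6 and 109.4 in compound KO lenses and 41.9, 101.4 and 40.9 in double KO lenses. Replicate 2 of the control and of the double KO lenses was at the level of the compound KO lenses, while the other libraries of these groups were lower (log2 fold change in double KO against compound KO lenses −0.90, adjusted p = 0.665, limma).

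*Itga5* and *Ptk2* had the same order of replicate numbers in control and double KO lenses. Of 283 genes with an SD of at least 1 log2 unit in both groups, 51 (18.0%) had the same order and 94 (33.2%) had the same number highest.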
